A study of Mus musculus with 6 samples.

Results

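Cadherins and protocadherins are calcium-dependent adhesion proteins of the cell surface, and their transcripts were measured here in the arcuate nucleus (ARC) of female mice. The members were the gene symbols that consist of Cdh and a number or that begin with Pcdh, with *Cdh5*, a gene of endothelial junctions, set aside. They were 93 of the 24015 symbols counted, namely 22 cadherins, 59 clustered protocadherins and 12 non-clustered protocadherins.

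Classical cadherins join neighbouring cells through their outer repeats and hold the actin skeleton through catenins, and different neurons carry different combinations of them. Clustered protocadherins are encoded in arrays, of alternative first exons in the α and γ clusters and of separate genes in the β cluster. Each neuron uses a few of them, and they give neurites of the same cell a shared identity. Non-clustered protocadherins of the δ1 and δ2 classes take part in axon growth, sorting of neurons and synapse formation, and several δ2 members recruit the WAVE complex to the membrane through their cytoplasmic tails.

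RNA sequencing was performed on ARC microdissected from 3 control females and 3 *Esr1* Nkx2-1Cre (mutant) females. The paper sought changes in the ARC that accompany raised bone metabolism in mutants. ERα is the receptor that *Esr1* encodes. Control females were *Esr1* fl/fl and carried no Cre, and mutant females were *Esr1* fl/fl with *Nkx2-1-Cre*, so that the floxed alleles were shared by both groups. All were adults on a mixed background, given as CD-1, 129P2 and C57BL/6 in the labels and as CD-1 and 129P2 in the methods, with ages between 11 and 20 weeks in the methods and 15 weeks in a figure legend. Cre from the *Nkx2-1* promoter acts in the developing ventral hypothalamus, so it can remove ERα before adulthood and outside the ARC, and females with Cre but without floxed alleles were not analysed here.

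The libraries of controls 1, 2 and 3 contained 14747944, 17877137 and 14046798 reads assigned to genes, and those of mutants 1, 2 and 3 contained 11792440, 15741681 and 15166356. Levels are given as CPM, counts relative to library size after TMM scaling, and 3 counts equal between 0.175 and 0.248 CPM, a floor that covers counting error only. *Esr1* reached 64.5, 57.5 and 48.5 CPM in controls against 11.8, 9.55 and 7.06 CPM in mutants. Every mutant was below every control, with a log2 fold change of -2.59, a standard error (SE) of 0.18 and an adjusted p-value of 0.000884 in the quasi-likelihood test of edgeR. *Nkx2-1*, the gene whose promoter drives Cre, ranged from 74.2 to 81.6 CPM in controls and from 61.1 to 77.8 CPM in mutants, and *Xist*, a marker of female cells, was at 1670 CPM or more in all 6 libraries. The ARC neuron markers *Agrp*, *Npy*, *Pomc*, *Kiss1*, *Tac2* and *Ghrh* were all detected. Led by *Pomc*, these 6 summed to 508, 542 and 502 CPM in controls and to 911, 586 and 686 CPM in mutants, so that every mutant was higher. Of the 6, *Kiss1* and *Tac2* had an unadjusted p-value under 0.05, both higher in mutants (adjusted *p* = 0.258 and 0.415 from edgeR and 0.00485 for both from DESeq2).

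Some libraries stood apart in the tissue around the ARC. Control 2 nearly lacked transcripts of the pars tuberalis, the pituitary tissue that lies against the ARC. *Cga*, the hormone subunit gene most abundant in that list, was at 3.26 CPM in control 2 and between 372 and 582 CPM in the other 5 libraries, and the 7 genes of the list summed to 5.64 CPM there and to between 462 and 745 CPM elsewhere, with *Pitx3* and *Gh* at 0.646 CPM or less throughout. The 5 meningeal fibroblast markers, led by *Dcn*, also had their lowest sum in control 2, at 78.0 CPM against 145 to 310 CPM, although *Col1a2* was lower in mutant 1 and *Slc6a13*, at 8.20 CPM in control 2, was higher in mutant 2 alone. Summed markers of tanycytes (309 against 428 to 617 CPM), mural cells (73.6 against 90.5 to 122 CPM) and endothelium (75.4 against 102 to 116 CPM) were lowest in control 2 too. Of these lists, *Crym*, *Acta2*, *Flt1* and *Cldn5* were not lowest there. Control 1 and mutant 1 had the lowest summed markers of the neighbouring ventromedial nucleus (VMH). *Fezf1*, a transcription factor gene of that nucleus, was at 1.14, 32.7 and 24.2 CPM in controls 1, 2 and 3 and at 9.90, 47.2 and 52.3 CPM in mutants 1, 2 and 3. The 5 VMH markers, led by *Cbln1*, summed to 73.2 and 71.9 CPM in control 1 and mutant 1 and to between 111 and 201 CPM in the other 4 libraries, and 1 of the 5, *Tac1*, had an unadjusted p-value under 0.05, lower in mutants. *Nr5a1*, *Fezf1* and *Cbln1* were lowest in control 1 and mutant 1, whereas *Tac1*, at 50.9 CPM in control 1, and *Sox14*, at 5.96 CPM there, were not lowest in that library.

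Of the 93 members, 89 were measured, meaning 0.5 CPM or more in at least 3 libraries. The exceptions were *Cdh3*, *Cdh16*, *Pcdha4* and *Pcdha4-g*. Together the members took between 0.376% and 0.439% of all counts. Levels can be set against each other only per length of exon, which was available outside the α and γ clusters. On that scale the non-clustered protocadherins came first in controls, with *Pcdh9* at 97.2 ± 6.36 CPM per kilobase (SD, n = 3), *Pcdh7* at 90.3 ± 7.92 CPM per kilobase and *Pcdh17* at 60.5 ± 2.58 CPM per kilobase. *Pcdh9* and *Pcdh7* lay within each other's spread, and *Pcdh17* lay below both. This order rests on GENCODE exon lengths, of 3.71, 6.20 and 9.51 kilobases for *Pcdh9*, *Pcdh7* and *Pcdh17*, and the annotation behind the counts is not given. In CPM alone *Pcdh9*, at a control mean of 361, lay below *Pcdh7* at 560 and *Pcdh17* at 576. *Cdh2* followed at 39.9 ± 3.71 CPM per kilobase, ahead of *Pcdh19* at 32.8 ± 3.19, *Pcdh10* at 27.9 ± 3.40 and *Cdh11* at 25.1 ± 2.49 CPM per kilobase, where neighbours in the order from *Pcdh19* to *Cdh11* did not differ beyond their spread.

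Comparing mutant with control ARC, 0 of the 88 members that could be tested had an adjusted p-value under 0.05 in edgeR. The same test called 18 of 15236 genes, or 0.118%, and 46, 9 and 7 genes without control 2, mutant 2 and mutant 3. DESeq2 called 2 members, *Pcdh11x* and *Pcdh7*, both lower in mutants, where it called 191 of 15105 genes, or 1.26%, and limma voom called 0 members. Before adjustment, 12 members had a p-value under 0.05 with a lower level in mutants, or 13.6% of those tested against 4.01% of all genes, and 5 had a higher level, or 5.68% against 4.84% of all genes. In place of these 17 members, 11 had such a p-value when control 2 was left out, 10 of them among the 17, and 10 did when mutant 2 was left out. Without control 3 there were 13, of which 7 were higher in mutants, so the lower members did not outnumber the higher ones in that fit, and without control 1 there were 16, of which 2 were higher. The 3 mutant values lay below the 3 control values in 10 members, or 11.4% against 7.88% of all genes, and above them in 4 members, or 4.55% against 7.88%. Genes of the α cluster share exons, as do those of the γ cluster, so the members are not all independent, and these shares were not tested. The median log2 fold change was -0.06 over the members and 0.00 over all genes tested. With 3 females a group, an exact two-sided permutation test of a single gene cannot give a p-value under 0.1.

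Of 9 δ-protocadherins tested, 4 had an unadjusted p-value under 0.05, all of them lower in mutants, or 50.0% of the δ1 and 40.0% of the δ2 genes against the 4.01% of all genes. In the δ1 class, *Pcdh11x*, an X-linked protocadherin of neurons, was at 158, 168 and 180 CPM in controls 1, 2 and 3 and at 114, 121 and 133 CPM in mutants 1, 2 and 3. The highest mutant remained below the lowest control. The log2 fold change was -0.46 (SE 0.09), with an adjusted *p* of 0.0795 from edgeR and 0.00166 from DESeq2. *Pcdh11x* spans chromosome X from 117403868 to 118024228 on the plus strand of the NCBIM37 assembly.

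*Pcdh7*, another δ1 gene, whose protein binds between cells in the nervous system, was at 536, 528 and 617 CPM in controls and at 432, 393 and 432 CPM in mutants. The groups were again apart, with control 3 the highest library and mutant 2 the lowest. The difference was -0.42 on the log2 scale (SE 0.09, adjusted *p* = 0.125 from edgeR and 0.00209 from DESeq2). *Pcdh7* spans chromosome 5 from 58109260 to 58520590 on the plus strand of NCBIM37. Over the 6 edgeR fits that each left out a library, adjusted p-values ranged from 0.0945 to 0.369 for *Pcdh11x* and from 0.0857 to 0.543 for *Pcdh7*, and the log2 fold changes from -0.53 to -0.41 and from -0.46 to -0.34. Over all alternative fits, adjusted p-values lay between 0.00166 and 0.369 for *Pcdh11x* and between 0.00209 and 0.543 for *Pcdh7*.

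The remaining δ1 genes did not share this pattern. *Pcdh9* was highest per length in controls, but within the spread of *Pcdh7*. It was at 344, 351 and 388 CPM in controls and at 387, 365 and 432 CPM in mutants. *Pcdh1* was at 114, 136 and 128 CPM in controls and at 109, 140 and 135 CPM in mutants. The groups overlapped in both genes, with log2 fold changes of 0.13 (SE 0.09) and 0.02 (SE 0.11), and that of *Pcdh9* was 0.06 without mutant 3.

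In the δ2 class, *Pcdh17*, which acts in axon extension and at synapses, was at 582, 596 and 549 CPM in controls and at 441, 437 and 506 CPM in mutants. No mutant reached the lowest control, and mutant 3 came closest. The log2 fold change was -0.32 (SE 0.09, adjusted *p* = 0.264 from edgeR and 0.0586 from DESeq2), and adjusted p-values lay between 0.0586 and 0.748 over the alternative fits. *Pcdh17* spans chromosome 14 from 84843370 to 84936867 on the plus strand of NCBIM37.

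*Pcdh19*, the X-linked δ2 gene in which human mutations cause an epilepsy of females, was at 299, 362 and 346 CPM in controls and at 199, 269 and 311 CPM in mutants. The groups overlapped, since mutant 3 lay above control 1, and mutant 1 was far below the rest. The log2 fold change of -0.37 (SE 0.15, adjusted *p* = 0.545, edgeR) was -0.21 without mutant 1. *Pcdh10*, which binds a subunit of the WAVE complex, was at 255, 315 and 320 CPM in controls and at 227, 261 and 287 CPM in mutants, and its groups overlapped (log2 fold change -0.20, SE 0.11, and -0.12 without mutant 1). *Pcdh18* and *Pcdh8*, named here after their values were seen, had log2 fold changes of 0.39 (SE 0.19) and 0.32 (SE 0.23), and overlapping groups. Without mutant 3 these were 0.20 and 0.09, and that of *Pcdh8* was 0.17 without control 1 and 0.51 without mutant 1. *Pcdh18* was at 25.9, 30.3 and 25.3 CPM in controls and at 25.4, 36.8 and 44.8 CPM in mutants.

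**Figure D1:**
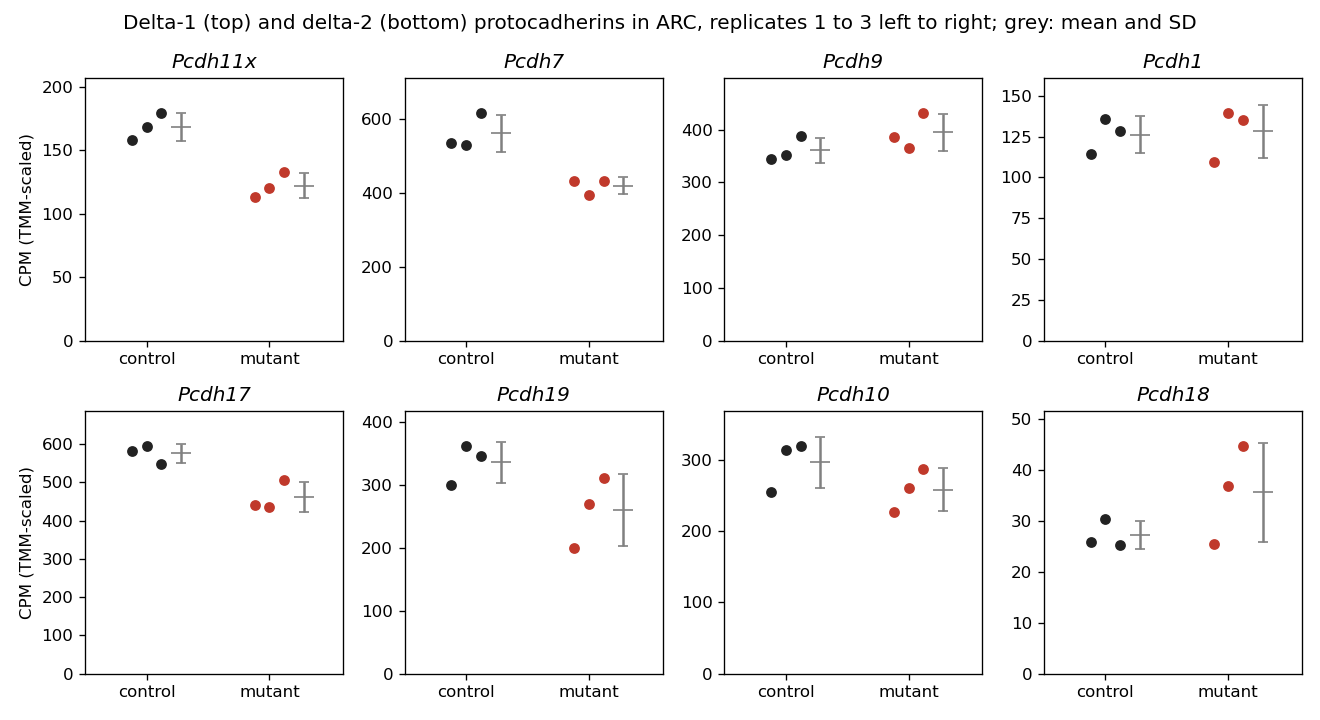
CPM after TMM scaling (y axis, from 0) of 4 δ1 (top) and 4 δ2 (bottom) protocadherins in 3 control (black) and 3 mutant (red) ARC libraries, each point a library and the grey mark the mean with its SD. *Pcdh11x*, *Pcdh7* and *Pcdh17* have no overlap between groups, as in 158 to 180 against 114 to 133 CPM for *Pcdh11x*.

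Summed over the 4 δ1 genes, the level was 1151, 1184 and 1313 CPM in controls and 1042, 1018 and 1132 CPM in mutants. Over the 5 δ2 genes it was 1172, 1317 and 1253 CPM in controls and 903, 1018 and 1168 CPM in mutants. Both sums were lower in each mutant than in each control, with plain CPM as well, while those of the clustered protocadherins and of the cadherins overlapped between groups. The δ1 and δ2 sums were led by *Pcdh7* and *Pcdh17*, given above as lower, and were not separate results. *Pcdh9*, *Pcdh1*, *Pcdh18* and *Pcdh8* had log2 fold changes above 0. The sum of the promoter choice genes given below was lower in each mutant as well, after TMM scaling only. In this bulk tissue, fewer cells of a type and less RNA per cell cannot be told apart. The 6 general neuron markers, led by *Snap25*, summed to 4128, 5263 and 5061 CPM in controls and to 4278, 5738 and 5507 CPM in mutants, with 0 of 6 at an unadjusted p-value under 0.05, and none was at 0 CPM. Oligodendrocyte and microglial markers were higher in mutants, with the sums given beside *Cdh19* and *Cdh20*, as was the sum of the 6 ARC neuron markers, and the part of these cell types in the lower δ-protocadherin levels was not tested. Without control 1 and mutant 1, the libraries low in VMH markers, the log2 fold changes were -0.46 for *Pcdh11x*, -0.47 for *Pcdh7*, -0.28 for *Pcdh17* and -0.29 for *Pcdh19*, a comparison chosen after seeing the data.

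Other non-clustered protocadherins overlapped between groups. *Pcdh20* was between 54.6 and 78.6 CPM in controls and between 60.1 and 74.8 CPM in mutants, and *Pcdh15*, a component of the tip links of hair cells, was between 42.0 and 54.2 CPM and between 43.4 and 54.0 CPM. *Pcdh12*, an endothelial protocadherin, was at 2.06 CPM or less in all 6 libraries.

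Because each mutant was below each control in both *Pcdh7* and *Pcdh17*, promoter letters of 22 members were searched in RefSeq windows of GRCm38.p6. Each window ran from 250 bases before to 50 bases after a gene's start. Windows were taken for 22 members, 25 in all, and none was available for *Pcdh11x*. The core of the estrogen response element, GGTCA or its reverse complement TGACC, stood in 4 of the 25, of *Cdh7*, *Cdh18* and *Cdh23*, and in 40.5% of all 32851 promoter windows. The palindrome of both cores with any 3 letters between them stood in 0 of the 25 and in 23 of all windows, or 0.07%. Neither the windows of *Pcdh7* and *Pcdh17* nor that of *Pcdh19* held the core, which says only that these letters are not in these windows.

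The 250 bases before the starts of *Pcdh7* and *Pcdh17* are shown to give the sequence searched, 5′ to 3′ on the plus strand of GRCm38.p6, with CG pairs in capitals. The whole windows held 11 CG pairs in *Pcdh7* and 26 in *Pcdh17*, against a median of 7 over all promoter windows and of 14 over the 25. *Pcdh7* is shown at chr5:57717831-57718080 and *Pcdh17* at chr14:84443313-84443562.
Pcdh7: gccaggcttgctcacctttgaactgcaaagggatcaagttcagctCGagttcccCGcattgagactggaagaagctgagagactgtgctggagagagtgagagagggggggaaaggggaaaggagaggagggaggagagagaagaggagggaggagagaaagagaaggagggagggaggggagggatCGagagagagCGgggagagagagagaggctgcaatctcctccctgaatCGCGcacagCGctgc
Pcdh17: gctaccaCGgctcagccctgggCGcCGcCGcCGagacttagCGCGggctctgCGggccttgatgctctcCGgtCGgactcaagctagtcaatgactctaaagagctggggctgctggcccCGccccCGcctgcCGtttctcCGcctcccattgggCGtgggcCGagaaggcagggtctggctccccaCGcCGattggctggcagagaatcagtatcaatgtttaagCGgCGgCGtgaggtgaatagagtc

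The 4 measured type I classical cadherins, which bind catenins and form adherens junctions, all overlapped between groups. *Cdh2*, the N-cadherin of neural tissue, was at 351, 291 and 322 CPM in controls and at 341, 310 and 328 CPM in mutants, fully overlapping (log2 fold change 0.02, SE 0.09, between -0.04 without control 2 and 0.09 without control 1). *Cdh4*, the R-cadherin of the retina and brain, was at 48.7, 64.7 and 50.9 CPM in controls and at 30.9, 61.9 and 65.2 CPM in mutants. Mutant 1 was lowest and the other mutants lay within or just above the controls. Its log2 fold change of -0.05 became 0.09 without control 2, 0.21 without mutant 1 and 0.14 without both libraries low in VMH markers.

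*Cdh1*, the E-cadherin of epithelia, was at 19.7, 7.10 and 16.9 CPM in controls and at 22.9, 21.8 and 19.2 CPM in mutants. Control 2, the library that nearly lacked pars tuberalis transcripts, was far below the other 5, and mutant 3 lay below control 1. That library was also lowest in summed meningeal, tanycyte, mural and endothelial markers. The log2 fold change of 0.55 (SE 0.34, adjusted *p* = 0.709, edgeR) was 0.22 without control 2 and 0.84 without control 1 (unadjusted *p* = 0.0447, edgeR). The part of pars tuberalis or of these other tissues in these levels was not tested beyond that. *Cdh3*, the P-cadherin of epithelia, had 2, 0 and 3 counts in controls and 4, 6 and 5 in mutants, at or near the floor, and was not tested. *Cdh15*, the M-cadherin of muscle, was between 1.32 and 2.22 CPM in all 6 libraries.

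All 12 type II cadherins, which share the fold of the classical cadherins and mark subsets of neurons and glia, were tested. *Cdh9*, which takes part in the choice of synaptic partners in the hippocampus, was at 33.1, 23.7 and 40.0 CPM in controls and at 15.5, 22.9 and 22.1 CPM in mutants. Every mutant was lower, although control 2 and mutants 2 and 3 were close together. The log2 fold change was -0.67 (SE 0.21, adjusted *p* = 0.381, edgeR). *Cdh24* was at 8.11, 7.27 and 6.96 CPM in controls and at 5.36, 5.47 and 5.93 CPM in mutants, again without overlap (log2 fold change -0.41, SE 0.17, adjusted *p* = 0.519, edgeR). *Cdh11*, *Cdh18* and *Cdh10*, the highest of the class per length over all 6 libraries, had overlapping groups and log2 fold changes of 0.17, -0.13 and 0.05. With 1 library left out these ranged from 0.09 (without mutant 3) to 0.24 (without control 3) for *Cdh11*, from -0.21 (without control 1) to -0.05 (without control 2) for *Cdh18* and from -0.08 (without mutant 3) to 0.17 (without mutant 1) for *Cdh10*. In controls alone *Cdh9*, at 11.2 ± 2.83 CPM per kilobase (SD, n = 3), and *Cdh10*, at 9.50 ± 0.653, did not differ beyond their spread.

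*Cdh19*, a cadherin of glia of the neural crest lineage, was at 6.23, 5.53 and 4.02 CPM in controls and at 9.49, 7.48 and 9.73 CPM in mutants. *Cdh20*, another type II gene, was at 7.84, 13.1 and 8.32 CPM in controls and at 14.1, 15.1 and 14.5 CPM in mutants. Both were higher in every mutant than in any control. The log2 fold changes were 0.75 (SE 0.21, adjusted *p* = 0.279, edgeR) for *Cdh19* and 0.57 (SE 0.20, adjusted *p* = 0.405, edgeR) for *Cdh20*.

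Oligodendrocyte markers were also higher in mutants. The 5 genes of the list, led by *Mbp*, summed to 304, 474 and 247 CPM in controls and to 652, 656 and 642 CPM in mutants. All 5 had an unadjusted p-value under 0.05 and were higher in every mutant, and none was at 0 CPM. *Cldn11*, a tight junction gene of myelin, passed the adjusted threshold (log2 fold change 1.27, SE 0.17, adjusted *p* = 0.0313, edgeR), with adjusted p-values between 0.00237 and 0.151 when a library was left out. It was above 0.05 without control 1, control 3, mutant 2 or mutant 3. The 4 markers of oligodendrocyte precursors, led by *Pdgfra*, summed to between 148 and 191 CPM in controls and between 162 and 200 CPM in mutants. The part of oligodendrocyte RNA in the levels of *Cdh19* and *Cdh20* was not tested. Microglial markers, led by *Csf1r*, were also higher, with sums between 138 and 153 CPM in controls and between 177 and 186 CPM in mutants, and 2 of 6 had an unadjusted p-value under 0.05.

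*Cdh13*, the T-cadherin, which is anchored to the membrane by a lipid and binds adiponectin, was at 47.8, 104 and 90.0 CPM in controls and at 82.0, 114 and 141 CPM in mutants. *Cdh7*, a type II cadherin named here after its values were seen, was at 7.17, 18.8 and 12.1 CPM in controls and at 13.2, 18.5 and 25.4 CPM in mutants. In both genes control 1 was the lowest control and mutant 1 the lowest mutant, as for *Fezf1*. The log2 fold changes of 0.48 (SE 0.35) and 0.58 (SE 0.39) were 0.39 and 0.50 without control 1 and mutant 1, and edgeR's adjusted p-values stayed above 0.05 (0.400 and 0.609 without these libraries). Without control 1 alone these values were 0.21 and 0.30, without mutant 3 they were 0.28 and 0.32, and that of *Cdh7* was 0.99 without control 2. The part of VMH tissue in these levels was not tested beyond that.

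Among the other cadherins, *Cdh26*, an epithelial cadherin, was at 2.81, 0.233 and 2.73 CPM in controls and at 4.62, 2.51 and 2.53 CPM in mutants. Control 2, at 4 counts, was the lowest library, as it was for *Cga* and for the summed meningeal, tanycyte, mural and endothelial markers. The log2 fold change of 0.75 (SE 0.70) was 0.20 without control 2 and 0.41 without mutant 1, and larger without control 1. *Cdh23*, the partner of *Pcdh15* in tip links, and *Cdh17*, the intestinal cadherin, were at 2.86 CPM or less in all 6 libraries, and *Cdh16*, the kidney cadherin, had 0 to 7 counts per library.

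**Figure D2:**
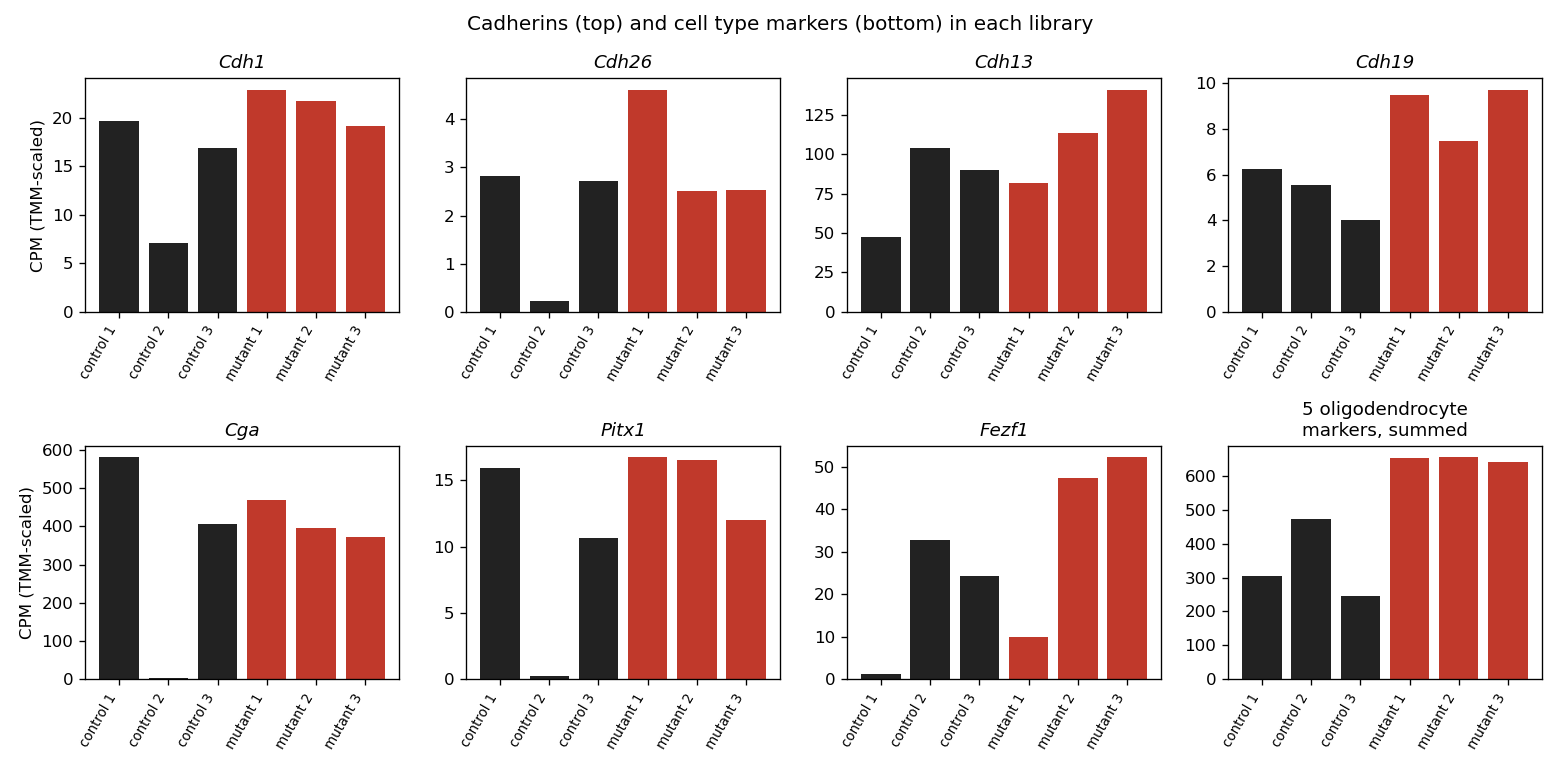
CPM after TMM scaling (y axes, from 0) of *Cdh1*, *Cdh26*, *Cdh13* and *Cdh19* (top) above *Cga*, *Pitx1*, *Fezf1* and the summed 5 oligodendrocyte markers (bottom), with a bar for each of 3 control (black) and 3 mutant (red) libraries. Control 2 is lowest in *Cdh1* (7.10 CPM) and *Cga* (3.26 CPM), and control 1 is lowest in *Cdh13* (47.8 CPM) and *Fezf1* (1.14 CPM).

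The clustered protocadherins lie in 3 neighbouring arrays, α, β and γ. In RefSeq, 14 α genes end within 1240 bases of each other and 22 γ genes within 1384 bases, since each splices its own first exon to the same constant exons, whereas the 22 β genes have ends of their own over 253965 bases. Reads on the constant exons belong to every α or every γ gene alike, and reads shared by near-identical first exons or β genes cannot be placed either, so single values in these clusters are uncertain. Of 59 rows, 57 were measured and 56 tested, and 9 had an unadjusted p-value under 0.05, or 16.1% against the 8.85% of all genes, with 6 lower and 3 higher in mutants. None passed after adjustment with edgeR (lowest adjusted *p* = 0.425), and DESeq2 and limma voom called 0 of them.

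In the α cluster *Pcdhac2*, a C-type gene needed for the spread of serotonergic axons, was at 32.5, 29.2 and 28.7 CPM in controls and 33.4, 30.1 and 31.5 CPM in mutants. Its groups overlapped (log2 fold change 0.07, SE 0.10, between 0.03 without mutant 1 and 0.13 without control 1). The other C-type gene, *Pcdhac1*, had between 2 and 26 counts per library and overlapped too. Of the alternate α genes, *Pcdha12* was at 4.09 to 6.38 CPM in controls and 3.14 to 4.73 CPM in mutants and *Pcdha11* at 2.79 to 4.59 CPM and 2.14 to 3.47 CPM. *Pcdha2* was at 1.74, 2.62 and 2.01 CPM in controls and 1.49, 1.38 and 0.666 CPM in mutants, below the controls in each (log2 fold change -0.86, SE 0.38, adjusted *p* = 0.561, edgeR, and -0.57 without mutant 3). Of 12 tested α genes, 8 were lower and 4 higher in mutants, with a median log2 fold change of -0.24. The lower ones were 66.7% against 49.0% of all genes, a share that was not tested, and the summed level of the cluster overlapped between groups. *Pcdha1* was measured but had too few counts to be tested, *Pcdha4* had 0 or 1 count per library and *Pcdha4-g* had 0 in every library, which allows up to 0.248 CPM.

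In the β cluster 16 of 22 genes were lower and 6 higher in mutants, with a median log2 fold change of -0.13, and all 22 were measured. The lower ones were 72.7% against 49.0% of all genes, a share that was not tested. The summed level of the cluster overlapped between groups, at 238, 244 and 301 CPM in controls and 241, 237 and 253 CPM in mutants. *Pcdhb14* was at 25.4, 21.0 and 24.5 CPM in controls and at 19.9, 19.0 and 19.5 CPM in mutants. Its neighbour *Pcdhb13* was at 11.1, 12.8 and 15.4 CPM in controls and at 8.75, 10.1 and 9.99 CPM in mutants. Neither overlapped between groups, and both had an unadjusted p-value under 0.05 (log2 fold changes -0.28 and -0.44, SE 0.12 and 0.16, adjusted *p* = 0.517 and 0.440, edgeR). The 5 neighbours from *Pcdhb11* to *Pcdhb15*, a run noticed after the values were seen, had log2 fold changes between -0.44 and -0.28. Per length, *Pcdhb17*, *Pcdhb14* and *Pcdhb3* were highest in the cluster, at 8.01 ± 1.12, 6.87 ± 0.674 and 6.09 ± 0.561 CPM per kilobase in controls (SD, n = 3), and neighbours in this order did not differ beyond their spread.

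In the γ cluster 12 genes were lower and 10 higher in mutants, with a median log2 fold change of -0.02, and the sum was 457 ± 31.2 CPM in controls and 457 ± 5.65 CPM in mutants (SD, n = 3). The 3 C-type genes at its end had log2 fold changes of both signs. *Pcdhgc3* was at 72.4, 81.8 and 62.5 CPM in controls and at 66.9, 83.9 and 89.9 CPM in mutants, with overlap (log2 fold change 0.15, SE 0.13). It was 0.06 without control 3 or mutant 3, 0.25 without control 2 and 0.27 without mutant 1. *Pcdhgc4*, which is needed for the survival of interneurons, was at 23.5, 23.4 and 27.9 CPM in controls and at 18.6, 19.7 and 21.9 CPM in mutants. *Pcdhgc5* was at 26.3, 33.2 and 31.1 CPM in controls and at 20.7, 26.3 and 24.5 CPM in mutants. The groups were apart in *Pcdhgc4* and met in *Pcdhgc5*, where mutant 2 was level with control 1 (log2 fold changes -0.31 and -0.34, SE 0.12 and 0.13, adjusted *p* = 0.489 and 0.476, edgeR).

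Alternate γ genes had unadjusted p-values under 0.05 in both directions, and none passed after adjustment. *Pcdhgb5* was at 17.4, 17.5 and 21.3 CPM in controls and at 25.6, 22.2 and 23.8 CPM in mutants, and *Pcdhga1*, the first gene of the array, was at 4.62, 6.69 and 7.17 CPM in controls and at 8.42, 8.29 and 9.26 CPM in mutants. Both were higher in every mutant (log2 fold changes 0.35 and 0.49, SE 0.13 and 0.20, adjusted *p* = 0.425 and 0.501, edgeR). *Pcdhgb2* and *Pcdhga4* overlapped between groups, with log2 fold changes of 0.38 (SE 0.17) and -0.47 (SE 0.21). Leaving out control 2 gave -0.29 for *Pcdhga4*, and leaving out control 1 gave 0.32 for *Pcdhga1*. *Pcdhga10* and *Pcdhga7* overlapped as well, at 27.4 to 34.4 CPM and 26.7 to 30.5 CPM in controls and 27.2 to 31.5 CPM and 30.4 to 33.8 CPM in mutants.

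**Figure D3:**
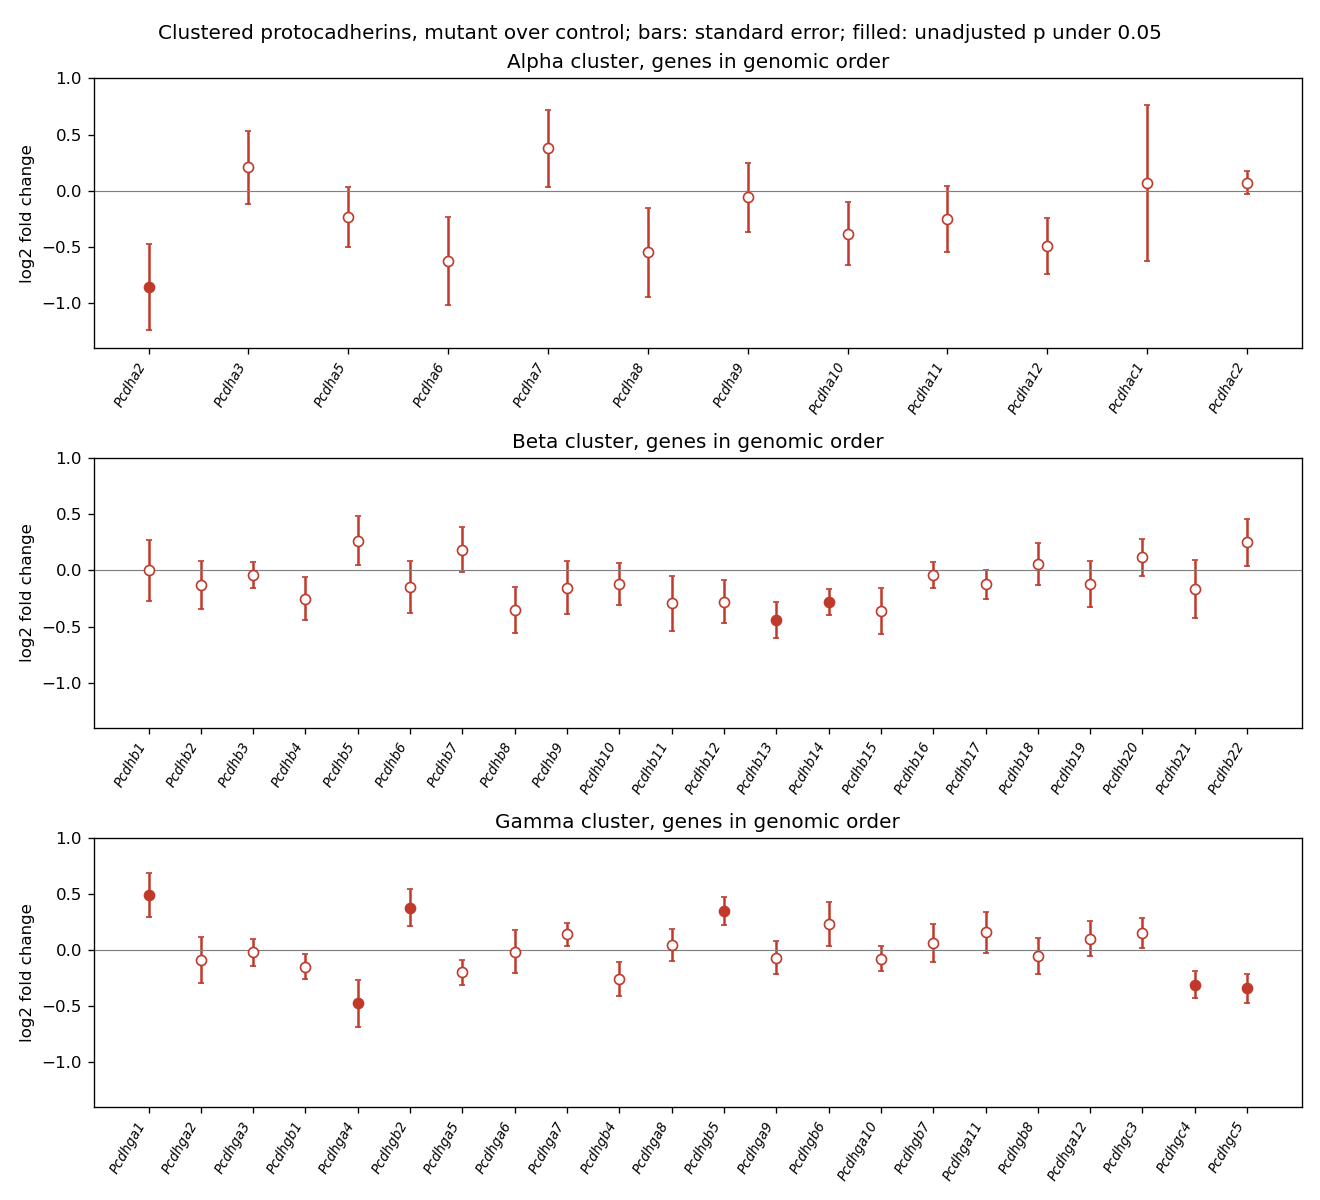
Log2 fold change of mutant over control (y axis) with its standard error (bars) from edgeR for 12 α, 22 β and 22 γ genes in genomic order (x axis), fitted on 3 libraries a group, with filled points for an unadjusted p-value under 0.05. Filled points lie below 0 at *Pcdha2* (-0.86), *Pcdhb13* (-0.44) and *Pcdhb14* (-0.28), and on both sides of 0 in the γ cluster, from -0.47 at *Pcdhga4* to 0.49 at *Pcdhga1*.

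Genes that act on or with these proteins were followed as lists. Of 14 genes for CTCF, cohesin and other factors that act in the choice of clustered protocadherin promoters, 0 had an unadjusted p-value under 0.05. Of these 14, 11 were lower in mutants, or 78.6% against 49.0% of all genes, with a median log2 fold change of -0.05. Their sum, led by *Pds5b*, was 2574, 2517 and 2543 CPM in controls and 2462, 2359 and 2497 CPM in mutants, lower in each mutant after TMM scaling and overlapping in plain CPM. *Ctcf* was at 93.1, 87.7 and 86.9 CPM in controls and 93.6, 92.0 and 83.7 CPM in mutants, and its groups overlapped. Of 11 catenins and their partners, some of which link classical cadherins to actin, 3 had an unadjusted p-value under 0.05. This was 27.3% against the 8.85% of all genes, and none passed after adjustment with edgeR or DESeq2. *Jup*, the catenin of desmosomes as well as adherens junctions, was at 25.7, 17.8 and 26.0 CPM in controls and at 34.2, 31.6 and 30.2 CPM in mutants. *Ctnna1*, the α-catenin outside neurons, was at 170, 129 and 150 CPM in controls and at 202, 177 and 179 CPM in mutants. Both were higher in every mutant (log2 fold changes 0.47 and 0.31, SE 0.15 and 0.11, adjusted *p* = 0.359 and 0.403, edgeR), and the value for *Jup* was 0.31 without control 2. *Ctnnd2*, the δ-catenin of neurons, was at 371, 468 and 473 CPM in controls and at 323, 366 and 398 CPM in mutants, with mutant 3 above control 1 (log2 fold change -0.27, SE 0.11, adjusted *p* = 0.526, edgeR).

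The median log2 fold changes were 0.09 over the catenins, 0.03 over the WAVE complex, -0.04 over the shedding proteases and 0.04 over the large cadherins. Of 9 WAVE complex genes, *Wasf2* alone had an unadjusted p-value under 0.05, at 47.2, 41.3 and 41.8 CPM in controls and 56.3, 53.5 and 49.0 CPM in mutants (log2 fold change 0.29, SE 0.10, adjusted *p* = 0.395, edgeR). *Nckap1*, whose product binds δ2 protocadherins and which was named after its values were seen, was at 705, 784 and 766 CPM in controls and 686, 739 and 795 CPM in mutants, with overlap. Of 8 genes for the proteases that shed cadherins and protocadherins, *Aph1b*, a γ-secretase subunit, had an unadjusted p-value under 0.05 with a log2 fold change of -0.20 (SE 0.09, adjusted *p* = 0.561, edgeR). Of 17 tested genes for large and distant cadherins, such as the Fat, Celsr and calsyntenin families, 2 did. The shares were 11.1% for the WAVE complex, 12.5% for the shedding proteases and 11.8% for the large cadherins, near the 8.85% of all genes. *Ret*, a receptor tyrosine kinase with cadherin-like repeats, was at 25.7, 35.8 and 25.4 CPM in controls and between 19.9 and 22.1 CPM in mutants, lower in each (log2 fold change -0.49, SE 0.15, adjusted *p* = 0.323, edgeR, and -0.31 without control 2). *Dsc3*, a desmosomal cadherin, was at 0.335, 0.233 and 0.932 CPM in controls and at 2.56, 1.95 and 0.933 CPM in mutants, with mutant 3 level with control 3 (log2 fold change 1.87, SE 0.58, adjusted *p* = 0.341, edgeR, and 2.64 without control 3). *Cdh5*, set aside from the members, was at 21.1, 14.8 and 19.4 CPM in controls and at 26.3, 25.6 and 23.8 CPM in mutants (log2 fold change 0.46, SE 0.14, adjusted *p* = 0.352, edgeR), while the 5 endothelial markers, itself included and led by *Flt1*, summed to 112, 75.4 and 108 CPM and to 116, 102 and 110 CPM.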

How the data were processed

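ARC RNA (50 ng or less) was amplified with an Ovation kit before sequencing. Raw counts per gene, made by the authors with TopHat2 2.1.0 and HTSeq 0.6, were deposited without normalization. The labels name the build mm9, the methods a mixed name, and the counting mode, strand setting and annotation are not given in the sources used here. Positions and exon lengths were matched by symbol to the GENCODE annotation of NCBIM37.

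Mutant was tested against control with edgeR 4.0.16 (quasi-likelihood test, TMM, robust dispersions, default count filter, Benjamini-Hochberg over all tested genes, threshold 0.05) in R 4.3.3. Alternatives used RLE, DESeq2 1.42.0, limma 3.58.1 voom, other filters, a replicate block and each library left out. Scripts were tested on simulated data. Chi-square per degree of freedom between libraries of a group was 6.60 to 20.6, so no library was a copy. The labels do not say how many females gave a sample.

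Members and lists were chosen with earlier results of these data known. Named members had an unadjusted p-value under 0.05, passed in DESeq2 or the block, were among the 3 highest of their class over all 6 libraries (per kilobase, or by CPM in the α and γ clusters), or were *Cdh1* to *Cdh4* or C-type protocadherins. *Cdh7*, *Cdh15*, *Cdh23*, *Pcdh1*, *Pcdh8*, *Pcdh18*, *Pcdhb11*, *Pcdhb15* and the members not measured or not tested were named outside this rule, after their values were seen. Of the other lists, up to 4 genes with the lowest p under 0.05 were named. Marker lists for astrocytes, mural cells, tanycytes and ependyma had 0, 0, 1 and 0 genes at that threshold. A gene of another marker list is not reported here.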

Additional observations from a re-analysis of the deposited data

How the results depend on the processing

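Counts of calls moved with the tool, the count filter and the replicate block. The main edgeR fit gave 0 members and 18 genes with an adjusted p-value under 0.05. DESeq2 gave 2 and 191, a minimum of 1 count in any sample gave 2 and 106, and the replicate block gave 2 and 123, where the 2 were *Pcdh11x* and *Pcdh7* each time. The cause was not tested. RLE gave 0 and 18, and limma voom 0 and 14. Leaving out each library gave 0 members throughout, 7 to 46 genes, and 10 to 16 members with an unadjusted p-value under 0.05 in place of 17. Of these 17, *Pcdh11x*, *Pcdh7*, *Pcdh17*, *Cdh9* and *Cdh19* were under 0.05 in all 6 such fits. Without the libraries low in VMH markers, chosen after seeing the data, 12 members were, 9 of them among the 17. Libraries of the same number were not shown to be paired. Their deviations from the group means correlated across genes with r of 0.28, 0.05 and -0.003 for numbers 1, 2 and 3, and control 1 alone correlated best with its own number. With the replicate block 18 members had an unadjusted p-value under 0.05.

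Of 725 refitted log2 fold changes of named genes, 24 changed sign, all in genes with no call. Over the fits without each library the log2 fold changes spanned -0.30 to 0.32 for *Cdh17*, -0.045 to 0.088 for *Cdh2*, -0.23 to 0.21 for *Cdh4*, -0.082 to 0.17 for *Cdh10*, -0.62 to 0.63 for *Pcdhac1*, -0.11 to 0.033 for *Pcdhb3*, -0.16 to 0.0028 for *Pcdhga10*, -0.28 to 0.41 for *Pcdh12* and -0.19 to 0.047 for *Pcdh20*. Without the low-VMH libraries they were 0.14 for *Cdh4*, -0.51 for *Pcdhac1*, -0.13 for *Pcdh12* and 0.022 for *Pcdh20*. *Pcdhac1* was at -0.65 with limma voom and -0.19 with the replicate block. The measured members were 89 with plain CPM and 88 at a minimum of 1 CPM. At these depths *Pcdhac1*, with 2 counts in mutant 2 and 15 to 26 in each other library, could not be followed.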
